A study of Mus musculus with 6 samples.

Results

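The transcripts described here are 10 genes of the circadian clock: Arntl, an activator of the loop; the repressors Per1, Per2, Per3, Ciart, Nr1d1 and Nr1d2; and the output genes Dbp, Tef and Noct. They were taken by symbol from a table of 34745 annotated genes in mouse colon. All 10 passed the filter on low counts, as did 15819 genes in all. RNA was sequenced from whole colon tissue of age-matched male mice after 6 days of dextran sulfate sodium (DSS), which damages the epithelium of the colon and provokes colitis. The labels give 3 libraries as TRPC-hepta knockout. Per the series title, these mice are without any of the 7 TRPC proteins, cation channels that let calcium into cells. The other 3 libraries are labelled TRPC-hepta control, and the sources used here do not give the alleles or strain of either group. Both groups received DSS, and no mice without it were analysed here. The sources used here do not give the hour of sacrifice, and each library shows 1 time of the daily cycle, so a shift of phase and a change of amplitude or mean level cannot be told apart.

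In the mammalian clock, the protein pair CLOCK and BMAL1 (encoded by Arntl) binds E-box sequences and activates the Per and Cry genes, whose products then block CLOCK and BMAL1. The same pair activates Nr1d1 and Nr1d2, which encode the REV-ERB repressors of Arntl, and Dbp, which encodes a PAR bZip factor that acts on D-box sequences. In mouse peripheral tissues such as gut and liver, Arntl peaks around the end of the night. Ciart, Nr1d1 and Dbp peak during the day, Per1, Per2 and Tef around the evening and Noct around the start of the night. Clock transcripts are present in epithelium, smooth muscle and other cells of the colon.

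The libraries held 13816295 to 17584992 counted reads, a depth at which 3 counts are 0.174 to 0.219 CPM (counts scaled to library size by TMM). The knockout libraries were not alike. Across genes, which are not replicates, log2 CPM of control libraries correlated at r = 0.97 to 0.976, whereas knockout replicates 1 and 2 reached only 0.877. Knockout replicate 3 resembled a weighted sum of replicate 1 (weight 0.497) and replicate 2 (weight 0.595). The median squared deviation from this sum was 2.62 times counting noise, against 6.86 to 9.34 for control libraries fitted on the rest of their group. Knockout replicates 1 and 2, fitted in the same way, gave 3.44 and 3.18, with negative weights on each other (-0.882 and -0.62). Without knockout replicate 3, 15 genes were past the threshold used below, against 278 with all 6 libraries. Leaving out control replicate 1, 2 or 3 gave 31, 20 and 29, so a large loss was not particular to knockout replicate 3. Leaving out knockout replicate 1 or 2 gave 320 and 1825. The main calls that follow are also given without knockout replicate 3. No label ties a replicate to an animal of its own, so the p-values rest on the spread among these samples, which may be technical.

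Noct and Ciart were lower in all 3 knockout libraries than in any control library, and both were past the threshold. The mean of Noct fell 4.91-fold and that of Ciart 3.47-fold in the fit. The other 8 members also had negative fold changes and were not past the threshold. Of the 10 members, 2 fell and 0 rose at an adjusted p under 0.05 (edgeR's quasi-likelihood test, with p-values adjusted over all genes by Benjamini-Hochberg). Of all genes tested, 1.76% were past that threshold, with 0.67% lower and 1.09% higher in the knockout. Groups did not overlap for 7 members, all lower in the knockout, as for 10.4% of all genes tested in that direction and 21.6% in either direction. The median log2 fold change was -0.56 over the 10 members and 0.01 over all genes tested. In bulk tissue, fewer cells of a type and less RNA per cell cannot be told apart.

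**Figure D1:**
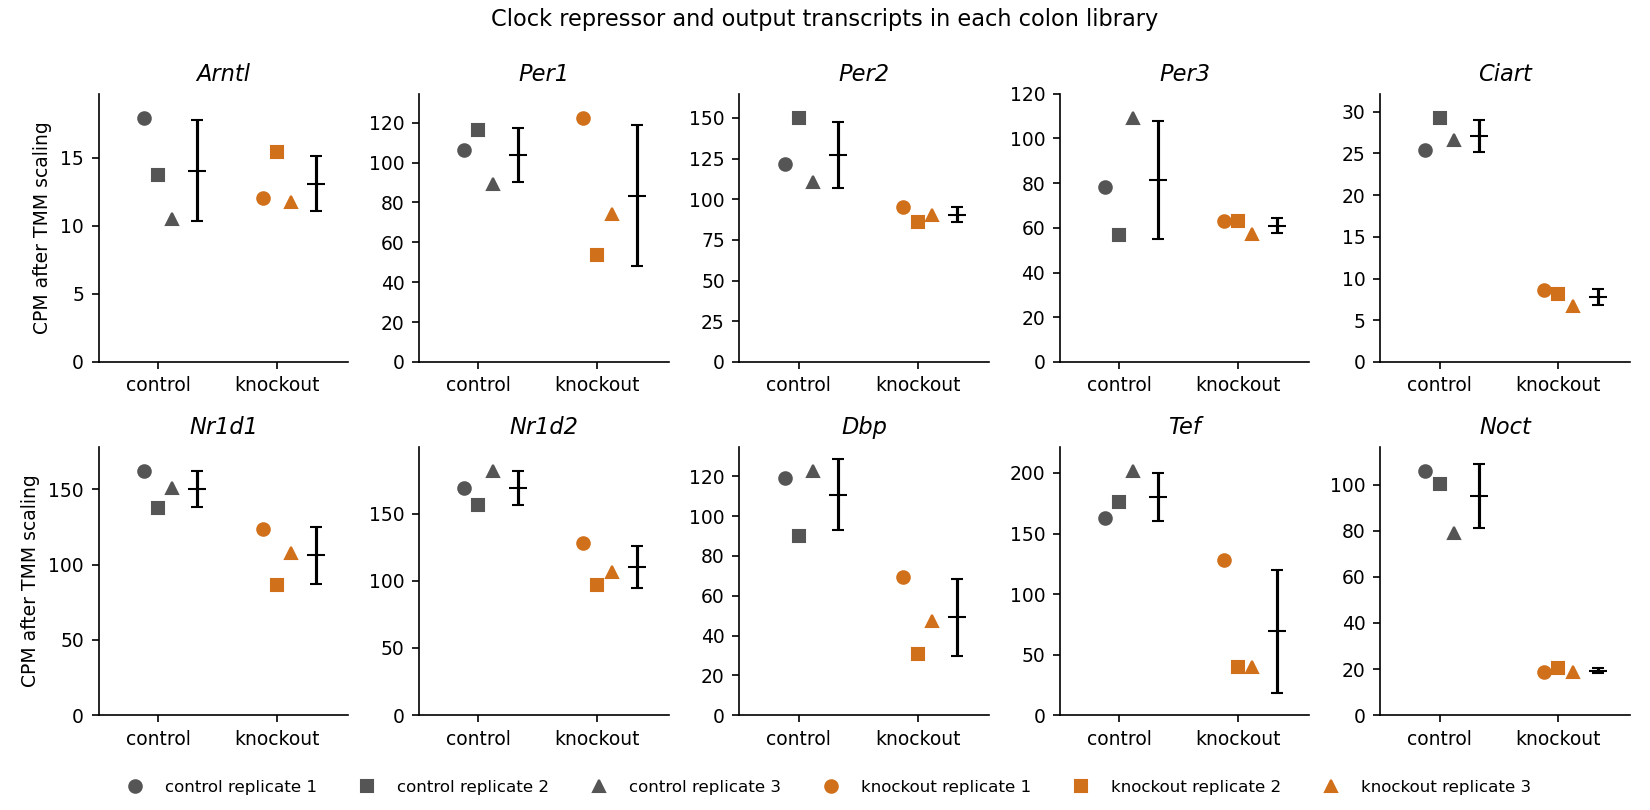
Each panel shows 1 transcript, with CPM after TMM scaling on a linear axis from 0, for 3 control libraries (grey) and 3 knockout libraries (orange); the marker shape gives the replicate number, and the black bar is the mean ± SD of each group (n = 3). The knockout points of Ciart (6.73 to 8.59 CPM) and Noct (18.6 to 20.6 CPM) lie close together and far below the controls, whereas those of Tef and Per1 are spread widely.

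Among the repressors, Ciart encodes CHRONO, which binds BMAL1 and represses transcription from E-boxes. Ciart (ENSMUSG00000038550, GRCm38 chromosome 3, 95878503 to 95882251) stood at 25.5, 29.3 and 26.6 CPM in control replicates 1, 2 and 3. In knockout replicates 1, 2 and 3 it stood at 8.59, 8.1 and 6.73 CPM. The groups were far apart and each was narrow, so that the highest knockout library was below the lowest control library. The log2 fold change was -1.79 ± 0.17 (SE; edgeR's quasi-likelihood test, adjusted p = 0.0102). The fold change was -1.70 without knockout replicate 3, where the call was lost (adjusted p = 0.0853, edgeR). The call was also lost without control replicate 1, 2 or 3 (adjusted p = 0.0622, 0.0722 and 0.0608, edgeR), with log2 fold changes of -1.84, -1.74 and -1.81.

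The sequence upstream of Ciart is shown because it is the repressor that fell and holds several E-boxes. The 250 bases before its RefSeq start (GRCm38.p6, chr3:95882229-95882478, minus strand) read 5′ to 3′ as follows, with each CACGTG in capitals.
Ciart promoter: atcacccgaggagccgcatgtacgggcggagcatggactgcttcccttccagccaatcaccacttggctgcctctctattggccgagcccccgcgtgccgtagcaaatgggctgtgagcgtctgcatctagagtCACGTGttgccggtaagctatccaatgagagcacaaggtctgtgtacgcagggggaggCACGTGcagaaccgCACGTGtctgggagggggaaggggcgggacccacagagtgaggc
It held 3 copies of CACGTG, which begin 116, 58 and 44 bases before the start. Of 32544 RefSeq promoter windows that run from 250 bases before to 50 after a start, 7.17% held at least 1 copy and 0.0891% at least 3. Exact matches were searched on both strands for CACGTG (E-box), CACGTT (E-prime box), TTATGTAA and TTACGTAA (D-box), TAGGTCA (the core of the element bound by REV-ERB and ROR) and TGACGTCA (cAMP response element). Windows were at hand for 9 of the 10 members, and Per2 was not among them. A match is a description of the letters and not evidence of binding.

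The REV-ERB genes had smaller differences. Nr1d1 (ENSMUSG00000020889, chromosome 11, 98767932 to 98775333), which encodes REV-ERB alpha, stood at 162, 138 and 151 CPM in the control and at 124, 86.5 and 108 CPM in the knockout. Its log2 fold change was -0.50 ± 0.17 (SE; edgeR, adjusted p = 0.215). Nr1d2 (ENSMUSG00000021775, chromosome 14, 18204054 to 18239127), which encodes REV-ERB beta, stood at 169, 157 and 182 CPM in the control and at 128, 96.7 and 107 CPM in the knockout. The groups did not overlap for either gene, and knockout replicate 2 was the lowest library for both. The log2 fold change of Nr1d2 was -0.61 ± 0.15 (SE; edgeR, adjusted p = 0.114). DESeq2 called Nr1d2 (adjusted p = 0.0079) and not Nr1d1 (adjusted p = 0.098). In GENCODE M21, 8.55% of the exonic bases of Nr1d1 overlap exons of Thra on the opposite strand. The sources used here do not say whether counting used strand, so reads in that stretch cannot be assigned to either. Thra itself had a log2 fold change of 0.03 (edgeR, adjusted p = 0.959).

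The period genes encode the partners of the cryptochromes in the repressor complex. Per1 (ENSMUSG00000020893, chromosome 11, 69095217 to 69109960) stood at 106, 116 and 89.0 CPM in the control and at 122, 53.4 and 74.2 CPM in the knockout. Knockout replicate 1 was above every control library and replicates 2 and 3 were below them, so the groups overlapped. Per2 (ENSMUSG00000055866, chromosome 1, 91415982 to 91459324) stood at 122, 150.04 and 111 CPM in the control and at 95.03, 85.9 and 90.4 CPM in the knockout. All 3 knockout libraries of Per2 were below the controls, within a narrow range. Per3 (ENSMUSG00000028957, chromosome 4, 151003652 to 151044665) stood at 78.1, 56.97 and 109 CPM in the control and at 63.0, 62.9 and 57.2 CPM in the knockout, and the groups overlapped. The log2 fold changes of Per1, Per2 and Per3 were -0.32 ± 0.30, -0.49 ± 0.15 and -0.42 ± 0.24 (SE). None was past the threshold, at adjusted p = 0.68, 0.18 and 0.463 (edgeR). The change of Per1 moved from -0.08 without knockout replicate 2 to -0.70 without knockout replicate 1, and that of Per3 from -0.15 without control replicate 3 to -0.62 without control replicate 2.

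Arntl (ENSMUSG00000055116, chromosome 7, 113207465 to 113314122), the activator and the antiphase member, was near the control level. It stood at 17.9, 13.7 and 10.5 CPM in the control and at 12.1, 15.4 and 11.8 CPM in the knockout, and the knockout libraries lay inside the control range. The log2 fold change was -0.10 ± 0.25 (SE; edgeR's quasi-likelihood test, adjusted p = 0.881), with an approximate 95% interval of -0.59 to 0.38. A change inside that interval could not be told from none in these libraries. Without control replicate 1 the sign turned, to 0.11.

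Short stretches of the other promoter windows are shown because they hold exact matches to the motifs named above; these are in capitals with 10 bases on either side (GRCm38.p6).
Per1, E-box (chr11:69098773-69098798, plus strand): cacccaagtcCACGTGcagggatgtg
Tef, first start, E-box (chr15:81802536-81802561, plus strand): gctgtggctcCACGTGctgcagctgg
Tef, second start, E-box (chr15:81811266-81811291, plus strand): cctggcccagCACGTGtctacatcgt
Nr1d1, E-prime box read on the other strand (chr11:98775390-98775415, minus strand): cacagatctcAACGTGccggctgctg
Per3, D-box (chr4:151044853-151044880, minus strand): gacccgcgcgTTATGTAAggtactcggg
Per3, D-box (chr4:151044806-151044833, minus strand): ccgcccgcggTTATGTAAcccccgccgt
Arntl, REV-ERB and ROR core (chr7:113207531-113207557, plus strand): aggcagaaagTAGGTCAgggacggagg
The 9 members have 12 windows, since Arntl, Per1 and Tef have a pair of starts each. E-boxes were in 4 of the 12 (Ciart, 1 of Per1 and both of Tef), against 7.17% of all windows. The E-prime box of Nr1d1 begins 28 bases before the start, and 4.71% of all windows held one. Per3 held 2 D-boxes, as did 0.0246% of windows, while 1.05% held at least 1. The TAGGTCA of Arntl begins 30 bases after its second start, and 2.61% of windows held that core. No window of a member held TGACGTCA, which 1.8% of windows hold.

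**Figure D2:**
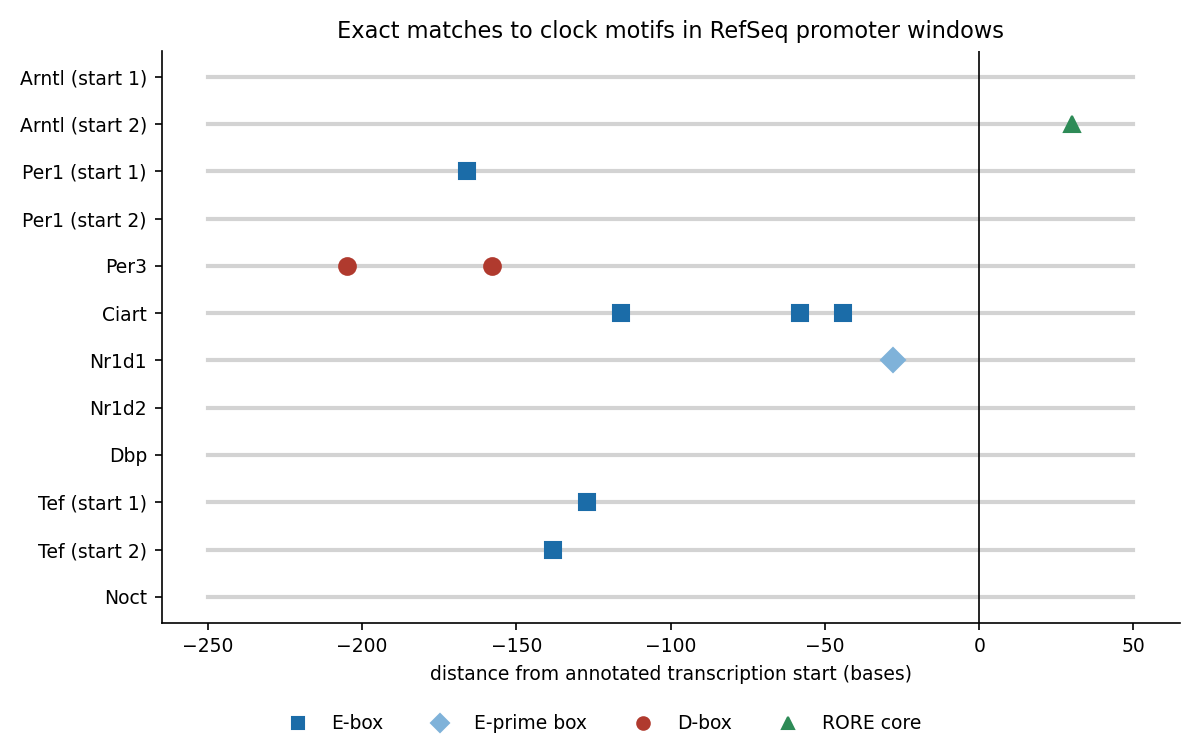
The horizontal axis gives the distance in bases from each annotated RefSeq start, and each grey line is 1 window from 250 bases before to 50 after it; symbols mark where an exact motif match begins. Ciart has 3 E-boxes, begun 116, 58 and 44 bases before the start, whereas Noct, Dbp and Nr1d2 have no match to the motifs searched.

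Of the output genes, Noct encodes nocturnin, a phosphatase with a rhythmic transcript in many tissues that acts on the cofactors NADP+ and NADPH. Noct (ENSMUSG00000023087, chromosome 3, 51224447 to 51251644) stood at 106, 100.2 and 79.1 CPM in control replicates 1, 2 and 3. In the knockout it stood at 18.8, 20.6 and 18.6 CPM. Every knockout library was far below every control library, and the knockout values were nearly equal. The log2 fold change was -2.30 ± 0.16 (SE; edgeR's quasi-likelihood test, adjusted p = 0.00331). The call held whichever control library was left out (adjusted p = 0.0124 to 0.0404, edgeR). Without knockout replicate 3 the log2 fold change was -2.27 and the call was lost (adjusted p = 0.058, edgeR).

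The upstream sequence of Noct is shown beside that of Ciart because it is the other member that fell. Its 250 bases before the start (GRCm38.p6, chr3:51224197-51224446, plus strand) hold no match to the motifs searched and so have no capitals.
Noct promoter: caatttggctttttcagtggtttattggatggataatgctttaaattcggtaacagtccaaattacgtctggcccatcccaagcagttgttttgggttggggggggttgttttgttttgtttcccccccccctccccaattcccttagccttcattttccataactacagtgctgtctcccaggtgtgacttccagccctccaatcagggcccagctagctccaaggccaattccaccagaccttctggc
The absence of these letters from the window says nothing about the factors that bind elsewhere.

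Dbp and Tef encode PAR bZip transcription factors, which bind D-boxes and drive rhythmic genes of metabolism and detoxification. Dbp (ENSMUSG00000059824, chromosome 7, 45705088 to 45710155) stood at 119, 90.2 and 123 CPM in the control and at 69.3, 30.6 and 47.5 CPM in the knockout. Tef (ENSMUSG00000022389, chromosome 15, 81802421 to 81826861) stood at 163, 176 and 202 CPM in the control and at 128, 39.4 and 40.1 CPM in the knockout. For both genes all knockout libraries were below the controls, with replicate 1 the highest of the 3. The log2 fold changes were -1.17 ± 0.30 for Dbp and -1.38 ± 0.48 for Tef (SE), and neither was past the threshold (edgeR, adjusted p = 0.127 and 0.222). Without knockout replicate 1 both were past it, with log2 fold changes of -1.50 (adjusted p = 0.0413) and -2.18 (adjusted p = 0.00576, edgeR). Dbp was also past it without knockout replicate 2, at -0.93 (adjusted p = 0.0475, edgeR), and by DESeq2 (adjusted p = 0.0119). In GENCODE M21, 18.01% of the exonic bases of Dbp overlap exons of Sphk2 on the opposite strand, so reads there cannot be assigned without strand. Sphk2 had a log2 fold change of -0.24 (edgeR, adjusted p = 0.624).

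On the FPKM scale, which corrects for gene length, Nr1d1 and Nr1d2 had the highest levels in both groups. Nr1d1 stood at 41.8 ± 3.0 FPKM in the control and 31.4 ± 7.9 FPKM in the knockout (SD, n = 3 each). Nr1d2 followed at 28.2 ± 2.0 and 19.5 ± 4.3 FPKM. In the control, Dbp and Per2 came next at 21.4 ± 3.3 and 21.0 ± 3.5 FPKM, followed by Tef and Per1 at 13.2 ± 1.5 and 12.2 ± 1.7 FPKM. Each of these pairs of neighbours lay within its spread. Ciart and Per3 (6.24 ± 0.52 and 6.23 ± 2.01 FPKM), Noct (5.74 ± 0.83 FPKM) and Arntl (4.70 ± 1.20 FPKM) were the lowest and lay within their spread. In the knockout, Ciart at 1.90 ± 0.31 FPKM and Noct at 1.23 ± 0.05 FPKM were below Arntl at 4.595 ± 0.40 FPKM.

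By the textbook order of phases, the differences did not have 1 common size. The late-night member Arntl was nearest to 0, at -0.10 on the log2 scale. Among the day members, Nr1d1 had -0.50, Dbp -1.17 and Ciart -1.79, and Nr1d2, the paralog of Nr1d1, had -0.61. Among the evening members, Per1 had -0.32, Per2 -0.49 and Tef -1.38, and Per3 had -0.42. Noct, of the early night, had -2.30. The REV-ERB genes lay within their SE of each other, as did Per3 and each of the other Per genes. Per1 and Per2 did so only by the wide SE of Per1 (0.30), being further apart than the SE of Per2 (0.15). Ciart lay further from 0 than Nr1d1 and Noct further than the Per genes.

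Ratios within a library do not depend on scaling between libraries. The log2 ratio of Nr1d1 to Arntl (FPKM) was 2.91, 3.06 and 3.57 in the control and 3.09, 2.22 and 2.93 in the knockout, and the groups overlapped. The ratio of Dbp to Arntl was 1.94, 1.92 and 2.75 in the control against 1.73, 0.20 and 1.22 in the knockout, without overlap. The ratio of Ciart to Nr1d1, both day members, was -2.94, -2.51 and -2.78 in the control and -4.12, -3.69 and -4.28 in the knockout. Ciart was thus lower in the knockout relative to Nr1d1 in all 3 libraries. The ratio of Noct to Per2 was -1.65, -2.03 and -1.93 in the control and -3.78, -3.51 and -3.73 in the knockout, again without overlap. With 3 against 3 libraries an exact permutation test cannot go below p = 0.1, and these ratios were chosen from the members, so no p is given.

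**Figure D3:**
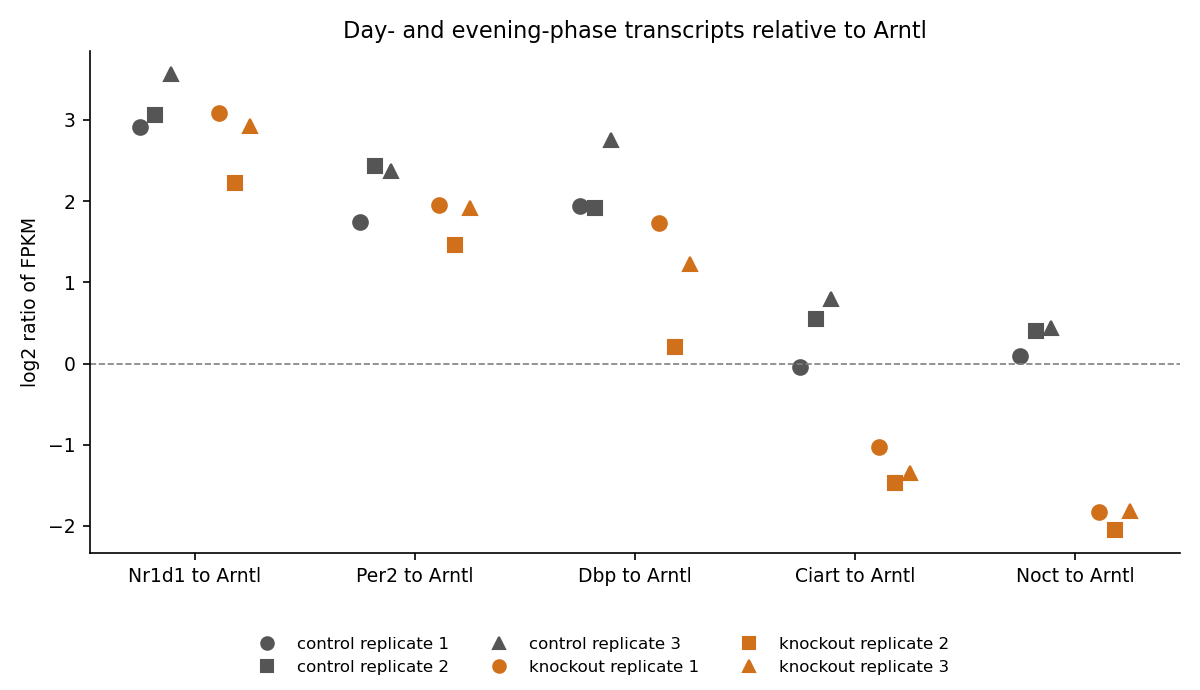
The vertical axis gives the log2 ratio of the FPKM of 5 members to that of Arntl within each library, for control (grey) and knockout (orange) libraries, with the marker shape for the replicate number. The groups overlap for Nr1d1 and Per2 and are separate for Dbp, Ciart and Noct, with Noct at 0.09 to 0.44 in the control and -2.05 to -1.81 in the knockout.

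The other genes of the clock were read from a list of 24, of which 23 passed the filter on low counts (Rorb did not). By edgeR 0 were past the threshold, with 4 at an unadjusted p under 0.05, against 16% of all genes tested. DESeq2 called 3 (Nfil3 higher, Rora and Wee1 lower) where it called 1453 of all 15809 genes, and limma on log2 FPKM called 0. Without knockout replicate 2, edgeR called 2, both higher (Nfil3 and Tspan4), where it called 1825 of all 16280 genes. The median log2 fold change of the list was -0.08, with 8 positive and 15 negative. The activators Clock and Npas2, partners of BMAL1, had log2 fold changes of -0.08 ± 0.20 and 0.21 ± 0.28 (SE). Clock stood at 55.1, 74.8 and 46.1 CPM in the control and at 55.9, 57.2 and 52.9 CPM in the knockout, inside the control range.

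The repressors Cry1 and Bhlhe41 were lower in each knockout library than in any control library and not past the threshold. Cry1, a cryptochrome, stood at 34.6, 33.5 and 33.3 CPM in the control and at 21.5, 28.7 and 24.8 CPM in the knockout (log2 fold change -0.44 ± 0.15, SE; edgeR, adjusted p = 0.233). Bhlhe41 (DEC2) had -0.64 ± 0.28 (adjusted p = 0.323), while its relative Bhlhe40 (DEC1) had -0.07 ± 0.13 (adjusted p = 0.834). Cry2 stood at 52.5, 42.3 and 49.1 CPM in the control and at 75.7, 30.4 and 46.1 CPM in the knockout, a spread like that of Per1.

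Genes that act beside the members on the same elements, read with the output gene Wee1, also differed in sign. Hlf, the third PAR bZip gene, stood at 21.1, 27.0 and 29.2 CPM in the control and at 19.0, 4.16 and 13.5 CPM in the knockout (log2 fold change -1.07 ± 0.50, SE; edgeR, adjusted p = 0.357). As for Dbp and Tef, knockout replicate 1 was the highest knockout library and replicate 2 the lowest. Nfil3, a repressor that competes for the D-box, stood at 7.91, 18.2 and 10.9 CPM in the control and at 64.8, 20.9 and 42.3 CPM in the knockout. Its log2 fold change was 1.79 ± 0.48 (edgeR, adjusted p = 0.133), and it was past the threshold without knockout replicate 2 (adjusted p = 0.0178, edgeR). Rora, an activator that competes with the REV-ERB proteins, had -0.97 ± 0.25 (adjusted p = 0.127). Wee1, a cell cycle kinase gene under clock control, stood at 8.9, 7.11 and 10.8 CPM in the control and at 4.39, 3.43 and 3.87 CPM in the knockout (-1.20 ± 0.26; adjusted p = 0.0796, edgeR).

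**Figure D4:**
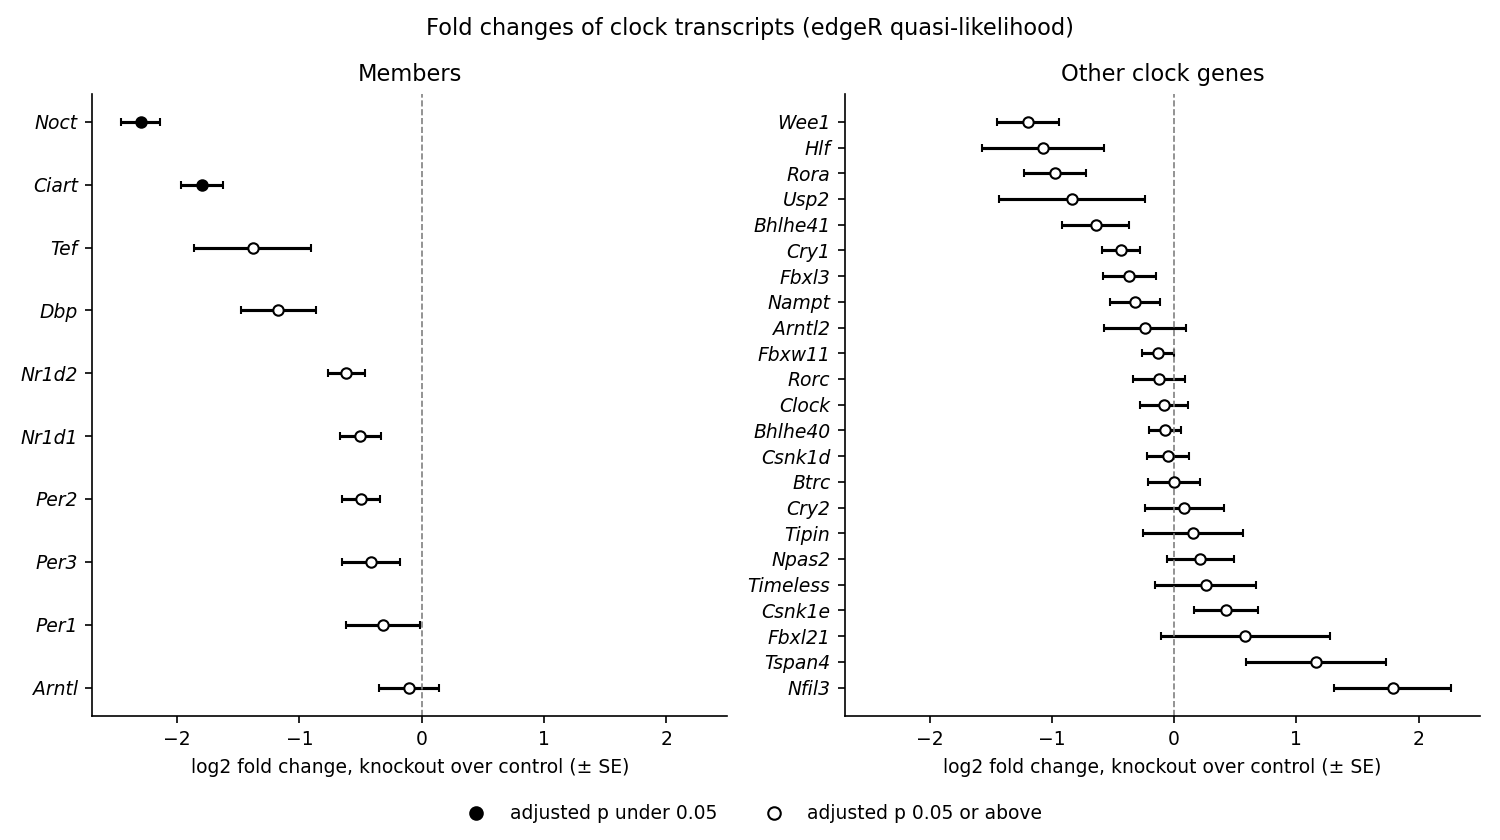
Points give the log2 fold change of knockout over control with its SE, on a shared horizontal axis, for the 10 members (left) and the 23 other clock genes tested (right); filled points are past the threshold of adjusted p under 0.05. Noct (-2.30) and Ciart (-1.79) are the filled points, all members lie below 0, and the other clock genes lie on both sides, with Nfil3 at 1.79.

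Markers of several cell types moved with the group. Markers of colon epithelium were read in every library, all 12 of them, with Car1 the most abundant. Their summed level was 22830 to 23040 CPM in the control and 9527, 30280 and 20290 CPM in knockout replicates 1, 2 and 3. Of 8 smooth muscle markers (Myh11 the most abundant) 4 fell and 0 rose, and the sum was 8265 to 11690 CPM in the control and 3704, 1732 and 2613 CPM in the knockout. The count fell to 0 without control replicate 1, control replicate 2 or knockout replicate 3 and to 2 without control replicate 3, and was 8 without knockout replicate 1 or 2. Of 7 neutrophil markers 5 rose and 0 fell, with a sum of 2.37 to 3.04 CPM against 276, 38.2 and 151 CPM, where S100a9 led. Cxcr2 and Retnlg had 0 reads in every control library and S100a9 in control replicate 1. Of 7 monocyte and macrophage markers (Lyz2 the most abundant) 2 rose and 0 fell, with 137 to 170 CPM against 330.0 to 413 CPM. Without any 1 control library or knockout replicate 3, 0 markers of either list were past the threshold. Without knockout replicate 2, 7 neutrophil and 5 macrophage markers were past it, and without replicate 1, 4 and 2, all higher. Leaving out knockout replicate 2 or 1, the fits called 1825 of 16280 and 320 of 16088 genes in all. Those without control replicate 1, 2 or 3 called 31, 20 and 29, and that without knockout replicate 3 called 15. The main fit called 0.67% of all genes tested as lower and 1.09% as higher.

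In the epithelial list and 5 further lists, 36 markers in all, 0 were past the threshold by edgeR. With edgeR 11 had an unadjusted p under 0.05, against 16% of all genes tested. DESeq2 called 5 and limma 0. Without knockout replicate 2 edgeR called 12, of which 11 were higher (5 fibroblast, 4 neuron and glia, 2 endothelial) and 1, Cidec, lower. That fit called 1825 of 16280 genes in all, and DESeq2 1453 of 15809. Leaving out any 1 of the other libraries gave 0 of these markers. Fibroblast markers, led by Dcn, summed to 501 to 613 CPM in the control and 2200, 523 and 1304 CPM in knockout replicates 1, 2 and 3. Adipocyte markers, led by Cidec, summed to 20.2 to 76.7 CPM in the control and 9.85 to 11.6 CPM in the knockout, where Adipoq and Plin1 had 0 reads in replicate 2. Endothelial markers, led by Pecam1, summed to 44.5 to 56.0 against 48.2 to 173 CPM, and neuron and glia markers, led by Uchl1, to 73.4 to 93.6 against 80.9 to 274 CPM. B and T cell markers, led by Cd8a, summed to 17.4 to 34.9 against 21.7 to 70.8 CPM.

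Noct and Ciart differed little between knockout replicates 1 and 2. In these, the summed epithelial, neutrophil, fibroblast, endothelial, neuron and glia, and B and T cell markers differed several-fold. The smooth muscle sum was 3704 and 1732 CPM, the macrophage sum 413 and 330 CPM and the adipocyte sum 11.6 and 9.85 CPM. The summed smooth muscle and adipocyte markers were lower in each knockout library than in any control library, though the adipocyte marker Plin1 overlapped (1.87 CPM in knockout replicate 3, 1.58 CPM in control replicate 3). The part of smooth muscle and of the other cell types in the lower clock transcripts was not tested.

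**Figure D5:**
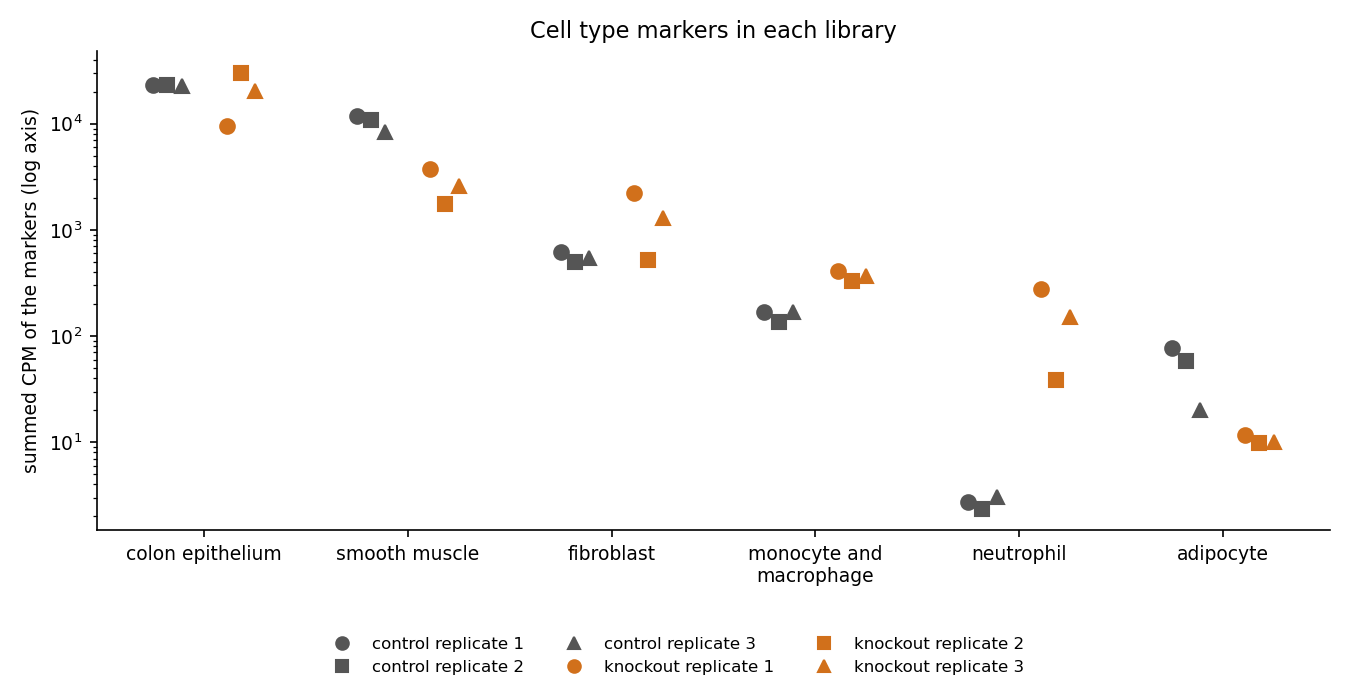
The vertical log axis gives the summed CPM of the markers of 6 cell types in each control (grey) and knockout (orange) library, with the marker shape for the replicate number. The sums of smooth muscle and adipocyte markers are lower and those of neutrophil and macrophage markers higher in all 3 knockout libraries, while the epithelial sum runs from 9527 to 30280 CPM within the knockout.

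Glucocorticoid targets were read as well, because Per1 is itself induced by glucocorticoids. Of 11 targets, 0 were past the threshold by edgeR, with 4 at an unadjusted p under 0.05, against 16% of all genes tested. DESeq2 called 3, all higher (Mt1, Mt2 and Dusp1), and so did edgeR without knockout replicate 2. Of all genes, these settings called 1453 of 15809 and 1825 of 16280. The median log2 fold change of the targets was 0.06, with 7 positive and 4 negative. Nr3c1, which encodes the glucocorticoid receptor, had -0.75 ± 0.29 (SE; edgeR, adjusted p = 0.282). Fkbp5, a chaperone that is a standard target, stood at 303, 344 and 295 CPM in the control and at 166, 271 and 215 CPM in the knockout (log2 fold change -0.53 ± 0.21, SE; edgeR, adjusted p = 0.276). Mt1 and Mt2, metallothioneins, and Dusp1, a phosphatase of MAP kinases, had 2.55 ± 0.98, 3.91 ± 1.09 and 1.51 ± 0.49 (adjusted p = 0.273, 0.145 and 0.198, edgeR). Knockout replicate 1 held the most of all 3, and replicate 2 lay inside or below the control range. The part of glucocorticoids in the lower clock transcripts was not tested.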

How the data were processed

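For each gene and each of 6 libraries, the deposited table holds a whole-number read count, not normalized by the authors, and an FPKM value, which the authors scaled by gene length and library total, per the file headers. The tools in the submitters' processing notes are edgeR, StringTie 1.3.0 and HISAT2 2.0.4, with no role stated. Those notes also name the genome builds GRCh38 (human) and mm8, whereas coordinates in the table are on GRCm38. Of the 10 members, 7 have the same start and end in GENCODE M21 and the rest differ at the end. The sources used here do not state strandedness.

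Counts were tested with edgeR 4.0.16 (R 4.3.3): TMM, edgeR's filter on low counts, quasi-likelihood test of knockout against control, two-sided, Benjamini-Hochberg adjustment over 15819 genes, threshold 0.05. Standard errors derive from the test statistic. The alternatives comprised RLE factors, DESeq2 1.42.0, an unfiltered table, limma 3.58.1 on log2(FPKM + 1) and on log2(FPKM + 0.1), the replicate number as a block, and fits without each library in turn. The members and lists were chosen with earlier results of these data known. All members are named. From other lists the genes with the smallest p (6 clock genes, 4 glucocorticoid targets) or the most abundant marker are named, and every other gene named (Clock, Npas2, Bhlhe40, Cry2, Tspan4, Nr3c1, further markers, and genes that overlap or neighbour a member) was chosen after its values were seen. Promoter sequences are from RefSeq (GRCm38.p6). A gene that the rule on likeness of pattern names is not reported here.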

Additional observations from a re-analysis of the deposited data

How the results depend on the processing

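Over all genes tested, 278 were past the threshold; DESeq2 called 1453 and the fit with a replicate block 9. Leaving out 1 library gave 15 to 1825. For the members the count was 2, with 4 by DESeq2 (Ciart, Noct, Dbp and Nr1d2) and 0 with the block. Leaving out 1 library gave 0 to 4: 0 without knockout replicate 3, 4 without knockout replicate 1. For the other clock genes the count was 0, with 3 by DESeq2 and 0 to 2 leaving out 1 library. RLE factors, no filter and limma on either FPKM scale left the calls of Ciart and Noct in place. The log2 fold change ran from -2.42 to -1.59 for Noct and from -1.87 to -1.32 for Ciart over all alternatives; both ends nearest 0 came from log2(FPKM + 1), which shrinks low values. The sign turned for Arntl alone among the 10 members, to 0.11 without control replicate 1 (lowest -0.28, without control replicate 3); the cause was not tested. No label says that the replicate numbers pair the libraries. Deviations of same-numbered libraries correlated at 0.042, -0.166 and -0.016, and control replicates 2 and 3 correlated best with another number. With 3 libraries a group, such values cannot show whether animals were matched. With the block, Noct and Ciart had adjusted p = 0.0589 and 0.0793 (edgeR). With 3 libraries a group, 1 of them close to a sum of the others of its group, small differences such as those of the Per genes could not be resolved. That closeness is a median over 15495 genes, and single genes can depart from it. Knockout replicate 3 lay between replicates 1 and 2 for 6 of the 10 members.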

Other observations

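Both members that fell lie on chromosome 3, which also carries Trpc4. Noct lies 2.9 Mb from Trpc4 and Ciart 41.6 Mb from it; Arntl lies 11.1 Mb from Trpc2 on chromosome 7. Within 5 Mb of Noct 2 of 33 other genes tested were past the threshold (6.06%), and within 5 Mb of Ciart 9 of 128 (7.03%), against 1.76% of all genes tested. Near Ciart 6 of the 9 were higher and 3 lower, and they include the neighbours Sprr2a2 and Sprr2a3 and the neighbours Hist2h2bb and Hist2h2be. Without knockout replicate 3 the counts were 0 near Noct and 2 near Ciart, the same as without any 1 control library. Without knockout replicate 2 they were 4 of 34 and 21 of 131, in a fit that called 1825 of 16280 genes. For the other 8 members the share was 0% to 2.67%. These windows were chosen after the values were seen, and the part of position in the lower transcripts was not tested. The next gene beyond Noct, Elf2, an ETS factor, had means of 60.1 CPM (control) and 59.3 CPM (knockout) (log2 fold change -0.02 ± 0.13, SE). The genes past the threshold near Noct were Slc7a11, the cystine transporter, which rose (log2 fold change 2 ± 0.28), and the predicted gene Gm37261, which fell from 30.2 to 0.329 CPM (edgeR, Benjamini-Hochberg adjusted p = 0.0287 and 0.00838). Without knockout replicate 3 neither was past it (adjusted p = 0.159 and 0.073, edgeR), nor without any 1 control library (0.121 to 0.15 and 0.0524 to 0.0607). Gm37261 lies within the span of Mgst2, which had means of 213.7 CPM (control) and 76.8 CPM (knockout). The log2 fold change of Mgst2 was -1.48 ± 0.36 (SE, edgeR, adjusted p = 0.1055). Whether reads of Mgst2 were counted for Gm37261 was not tested.

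The genes whose log2 CPM followed that of Ciart most closely over the 6 libraries, among 2621 with a range of at least 2 log2 units, included Myocd, a coactivator of smooth muscle genes (r = 0.995). In all, 40 such genes reached r = 0.95. For Arntl they were Lrrc8d, Sgsm3 and Iqcd (r = 0.951, 0.903 and 0.903), and 1 reached 0.95. These values share libraries and group difference and are a description over 6 points.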
